A study of Homo sapiens with 2 samples.

Results

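The 4 human Y RNA genes RNY5, RNY4, RNY3 and RNY1 lie together on chromosome 7, and the H3K4me3 regions around them were compared between HEC-1-B cells with and without ZNF143. The members were chosen by position: every region of either deposited peak list on chromosome 7 from 148600000 to 148720000 (hg19) was taken, and a region was given to a gene when its nearest edge lay within 1.5 kb of that gene's position. This locus was selected on measured values, because a wild-type region next to RNY4 was known to have no counterpart in the knockout list. The absence at RNY4 is therefore a description and supports nothing further. The window held 4 of the 20567 wild-type regions and 2 of the 20509 knockout regions, and 3 of the 4 genes had a region in at least 1 list.

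HEC-1-B is an established human endometrial (uterine) adenocarcinoma line. The study profiled H3K4me3, a histone mark of active promoters, by chromatin immunoprecipitation and sequencing in 1 library from wild-type HEC-1-B cells and 1 library from HEC-1-B cells labelled ZNF143KO. Whether the knockout line is a single clone is not given in the sources used here, and the cell type was not checked against marker genes. With 1 library per genotype there is no replicate check, no test between genotypes was made, and the intervals below cover counting error only.

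Y RNAs are small noncoding RNAs that are bound by the Ro60 and La proteins and have been linked to RNA quality control and to the start of DNA replication. RNA polymerase III transcribes their genes from promoters of the type 3 class, whose elements lie upstream of the transcribed sequence, as in the U6 gene, and include a TATA box and a proximal sequence element. ZNF143 is a zinc-finger activator that binds the distal part of many such promoters and of small nuclear RNA promoters. Chromatin beside active genes of this class can carry H3K4me3. No RNA data were used here, so which polymerase, if any, transcribes the DNA under these regions was not tested.

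In the wild-type list, RNY5, RNY4 and RNY1 each had 1 H3K4me3 region of high enrichment over its local background. By fragment count at the highest point, these regions stood only at the 61.0, 29.8 and 47.96 percentiles of that list. In the knockout list, the RNY4 region was not called, and those of RNY5 and RNY1 had fewer fragments than in the wild-type list. At the median of all regions paired between the lists, the fragment count was higher in the knockout list. RNY3 had no region within 1.5 kb in either list.

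The strength of a region is given here in 2 ways. The summit pileup is the count of sequenced fragments that overlap its highest point, which was worked out from the deposited fold and p values. The fold is the authors' own value, the ratio of that pileup to a local background rate. The lowest such rate was 1.40 fragments per base for wild-type cells and 3.25 for knockout cells. It is only an indirect guide to depth, since total reads were not used. Across 16501 regions paired one-to-one between the lists, the median knockout pileup was 1.86 times the wild-type pileup (0.89 on the log2 scale). Ratios called centred below are relative to that median.

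RNY5, the gene at the low-coordinate end of the cluster at 148638580, had the strongest region of the window in the wild-type list. Its wild-type region ran from 148637725 to 148638785 with a pileup of 275 fragments (95% Poisson interval 243.5 to 309.5) and a fold of 23.3. Its knockout region ran from 148637908 to 148638491 with a pileup of 69 fragments (53.7 to 87.3) and a fold of 13.8. The knockout pileup was thus 0.251 times the wild-type pileup before any scaling, and the 2 counting intervals did not overlap.

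RNY1, the gene at the other end at 148684228, had the next strongest region in the wild-type list. Its wild-type region ran from 148684600 to 148685296 with a pileup of 182 fragments (156.5 to 210.4) and a fold of 21.2. Its knockout region ran from 148684557 to 148685368 with a pileup of 83 fragments (66.1 to 102.9) and a fold of 13.6. Here the knockout pileup was 0.456 times the wild-type pileup, again with no overlap of the counting intervals.

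RNY4, at 148660407, had a wild-type region from 148659938 to 148660375, with a pileup of 74 fragments (58.1 to 92.9), a fold of 20.8 and a −log10 q of 76.5. No knockout region was called there: the nearest knockout region to its summit was that of RNY5, 21585 bp away. A further wild-type region from 148663791 to 148663964, 3384 bp above RNY4 and so assigned to no gene, had 14 fragments (7.65 to 23.5) and a fold of 4.20, and it also lacked a knockout partner.

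**Figure D1:**
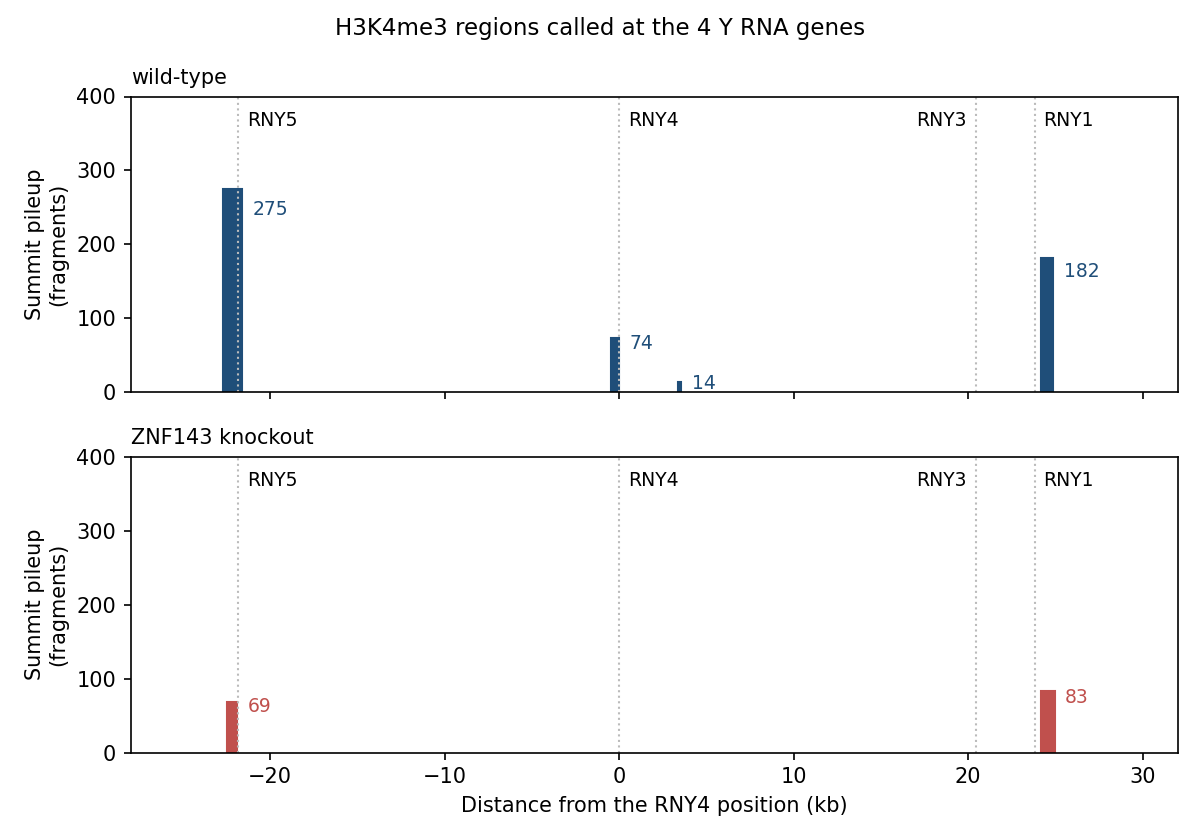
H3K4me3 regions at the Y RNA genes in the wild-type list (upper panel) and the ZNF143 knockout list (lower panel). The horizontal axis is the distance from the RNY4 position in kb, each bar spans a called region, its height and number are the summit pileup in fragments, and dotted lines mark the 4 gene positions. The wild-type panel has 4 bars, with pileups of 275, 74, 14 and 182, and the knockout panel has 2, with pileups of 69 and 83.

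RNY3, at 148680848, lies 3380 bp from RNY1, and these are the closest neighbours of the cluster. Its nearest region was the one given to RNY1, whose wild-type edge was 3752 bp away and whose knockout edge was 3709 bp away. The 1.5 kb limit therefore fell in a wide gap: the farthest assigned edge was 372 bp from its gene and the nearest unassigned one 3384 bp. No H3K4me3 region was given to RNY3 in these cells, which does not show that its promoter is unmarked, since only called regions were used.

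The summits lay to one side of the gene positions. Each position is the single hg19 coordinate given in the selection rule; it was not checked against an annotation of that build, and the strand and the end of the gene that it marks were not used, so whether a region near it overlaps the gene was not determined. The wild-type summit was 367 bp below the RNY5 position, 331 bp below the RNY4 position and 547 bp above the RNY1 position, where below and above refer to hg19 coordinates. The RNY4 region ended 32 bp before the gene position and the RNY1 region began 372 bp after it. Only the wild-type RNY5 region spanned its gene position, and the knockout RNY5 region ended 89 bp before it. Each of these genes is short, with annotated lengths of 84 bp for RNY5, 96 bp for RNY4, 102 bp for RNY3 and 113 bp for RNY1 in the RefSeq table of GRCh38.p14. That table holds 75 other genes whose symbols begin with RNY and a digit, so reads from within a Y RNA sequence may align to several copies. Of the regions here, only the wild-type RNY5 region held a gene position.

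The wild-type regions differed more in pileup than in fold. By pileup, RNY5 was 1.51 times RNY1 (95% interval 1.25 to 1.83) and RNY1 was 2.46 times RNY4 (1.87 to 3.27), so the order RNY5, RNY1, RNY4 held beyond counting error. By fold the 3 regions lay between 20.8 and 23.3. In the knockout list RNY5 was 0.831 times RNY1 (0.595 to 1.16), and the 2 regions did not differ beyond counting error.

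The knockout to wild-type ratio was then set against all paired regions. For RNY5 the centred log2 ratio was −2.89 (95% counting interval −3.29 to −2.50), a pileup 7.41 times lower than that of a pair at the median. For RNY1 it was −2.03 (−2.42 to −1.65), or 4.08 times lower. Both shared regions were thus at least 2-fold lower in the knockout after centring, a threshold that 1.98% of all pairs passed in that direction and 2.5% in the opposite one; by the authors' fold in place of the pileup, neither passed it. Of the 16501 pairs, 18 (0.109%) had a centred ratio as low as that of RNY5 or lower, and 40 (0.242%) one as low as that of RNY1. On chromosome 7, RNY5 had the lowest ratio of 841 pairs and RNY1 the fifth lowest (rank 5). The difference between the 2 genes was −0.86 on the log2 scale (95% interval −1.42 to −0.30), so by pileup the RNY5 ratio was the lower beyond counting error. By the authors' fold the centred values were −0.71 for RNY5 and −0.59 for RNY1, so most of that difference was not seen by fold. These genes share a locus that was chosen for the missing region at RNY4, and both values are descriptions of this pair of libraries.

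**Figure D2:**
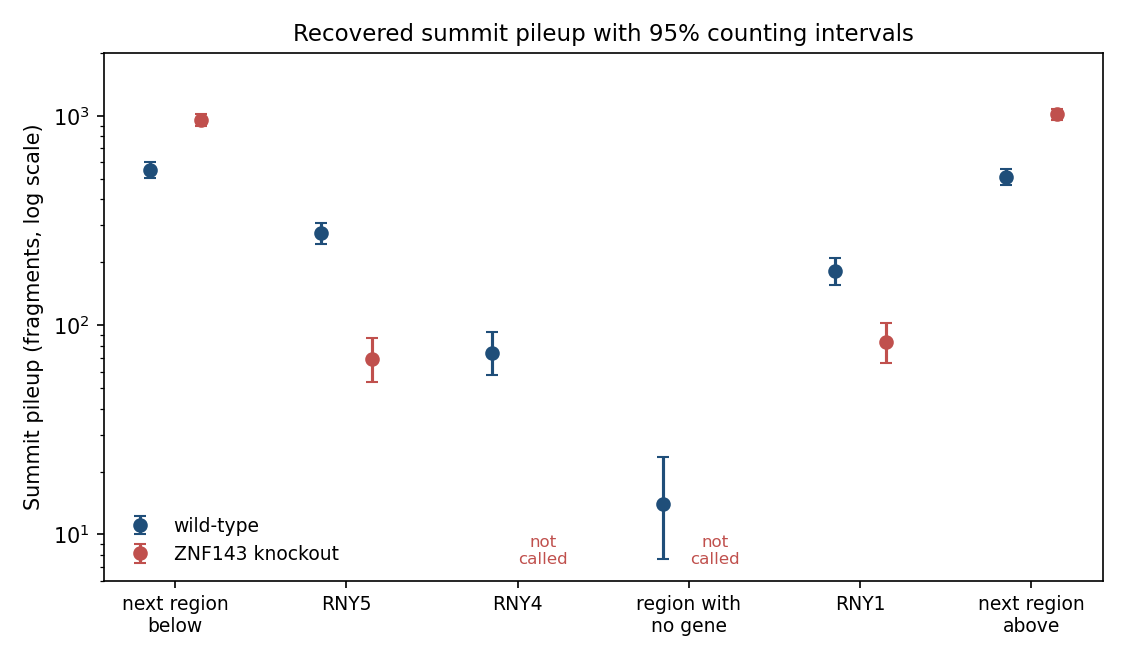
Summit pileup in fragments (log scale) of each region of the Y RNA window and of the nearest called region on either side of it. Points are the wild-type and ZNF143 knockout libraries and bars are 95% Poisson counting intervals. The flanking regions had more fragments in the knockout library, RNY5 and RNY1 had fewer, and RNY4 and the region with no gene were not called in it.

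The called regions on either side of the window did not share the lower pileup. The next region below the window, from 148580240 to 148582309 in the wild-type list, had 553 wild-type and 957 knockout fragments, a centred log2 ratio of −0.10 (−0.26 to 0.05). The next region above it, from 148724653 to 148725725, had 511 and 1019 fragments, a centred log2 ratio of 0.10 (−0.05 to 0.26). Both intervals include 0, so regions 57359 bp below RNY5 and 41116 bp above RNY1, measured to their wild-type summits, were near the ratio of all pairs. In the RefSeq table the neighbouring protein-coding genes of the cluster are EZH2, a histone methyltransferase gene, and PDIA4, a gene of protein folding in the endoplasmic reticulum. These 2 regions were not assigned to genes here, because the table is of another genome build. The same table holds 1 other gene, LOC124901768, between the outer Y RNA genes. For the same reason, no region was compared with its position.

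Within 5 Mb of the window, 56 other pairs had a median centred log2 ratio of −0.03, with quartiles of −0.14 and 0.11. The lowest of them was −0.55 and the highest 1.45, and 0 of the 56 were at least 2-fold lower. RNY5 and RNY1 therefore lay below every other pair of this 5 Mb neighbourhood. Of 66 other wild-type regions in it, 1 had no knockout partner, against 2 of the 4 in the Y RNA window. The 2 include the RNY4 region for which the locus was chosen, so this contrast is a description.

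**Figure D3:**
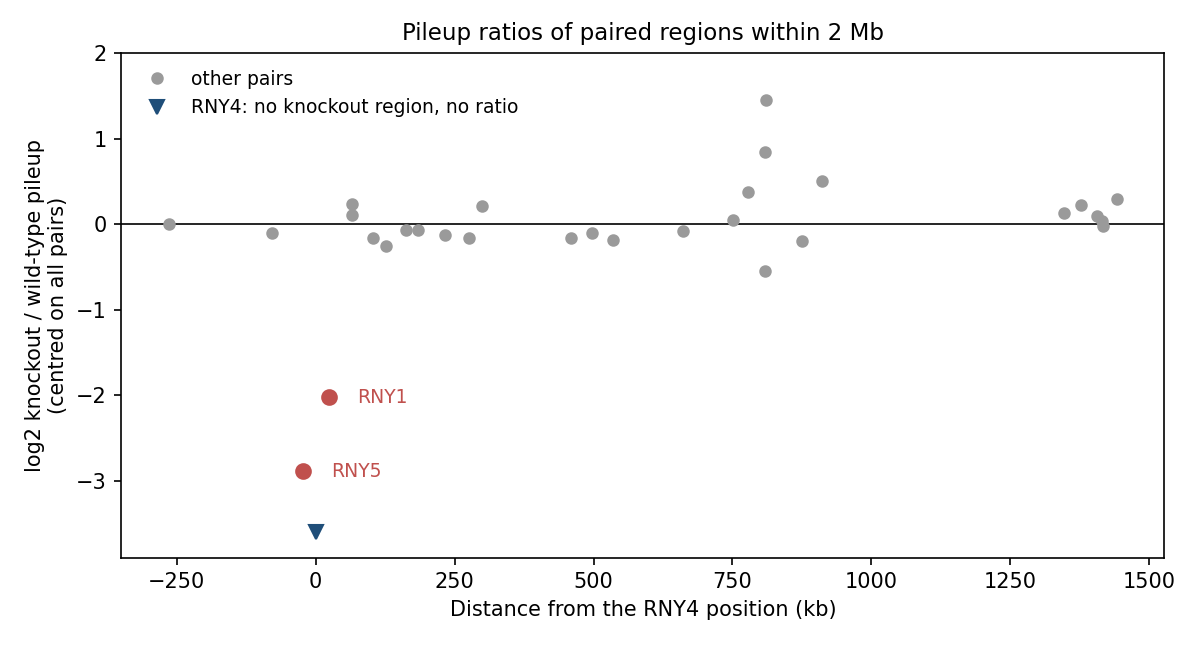
Centred log2 ratio of summit pileup, knockout over wild-type, for one-to-one pairs within 2 Mb of RNY4, by distance of the wild-type summit from the RNY4 position in kb. Red points are RNY5 (−2.89) and RNY1 (−2.03), grey points are other pairs, and the triangle marks only the position of RNY4, which has no knockout region and so no ratio. The other pairs lie mostly near 0, with a range from −0.55 to 1.45.

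For RNY4 the question is how many fragments the knockout list could have missed. A wild-type pileup of 74 scaled by the median ratio of all pairs gives 137.6 fragments. The weakest p-value in the knockout list was 3.54 on the −log10 scale. At the lowest background rate of the knockout library, a pileup of 11 fragments reaches it. At the wild-type RNY4 rate multiplied by 2.31, the ratio of the libraries' lowest rates, the limit is 16 fragments, 8.60 times below the scaled value. A knockout region under that limit, or one too narrow for the peak caller, would not be listed, so residual H3K4me3 at RNY4 was not detectable rather than absent. For the 14-fragment region above RNY4, the scaled pileup was 26.03 against a limit of 16, or 1.63 times the limit, so this region lay close to what the knockout list could hold.

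Absence from the other list was common among weak regions. Of all wild-type regions on the assembled chromosomes, 5.53% (95% Clopper-Pearson interval 5.21 to 5.85%) had no knockout partner, against 2 of 4 in the Y RNA window, and 9.67% of knockout regions had no wild-type partner, against 0 of 2. RNY5, RNY4 and RNY1 all fell in the top wild-type decile by fold, where 5 of 1979 (0.253%) were unshared. In the third decile by pileup, where RNY4 lay, 55 of 1959 (2.81%) were unshared. The other unshared region of the window, the one with no gene, lay in the lowest decile by both measures. There 375 of 1924 (19.5%) were unshared by fold and 804 of 1923 (41.8%) by pileup. Only 4 of the 1189 wild-type regions with both a fold and a pileup at least those of RNY4 had no partner, and RNY4 was 1 of them. These cut-offs are the values of RNY4 itself, and the locus was chosen because RNY4 lacked a partner. Its place in this set and the 2 of 4 are therefore descriptions and support nothing further.

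**Figure D4:**
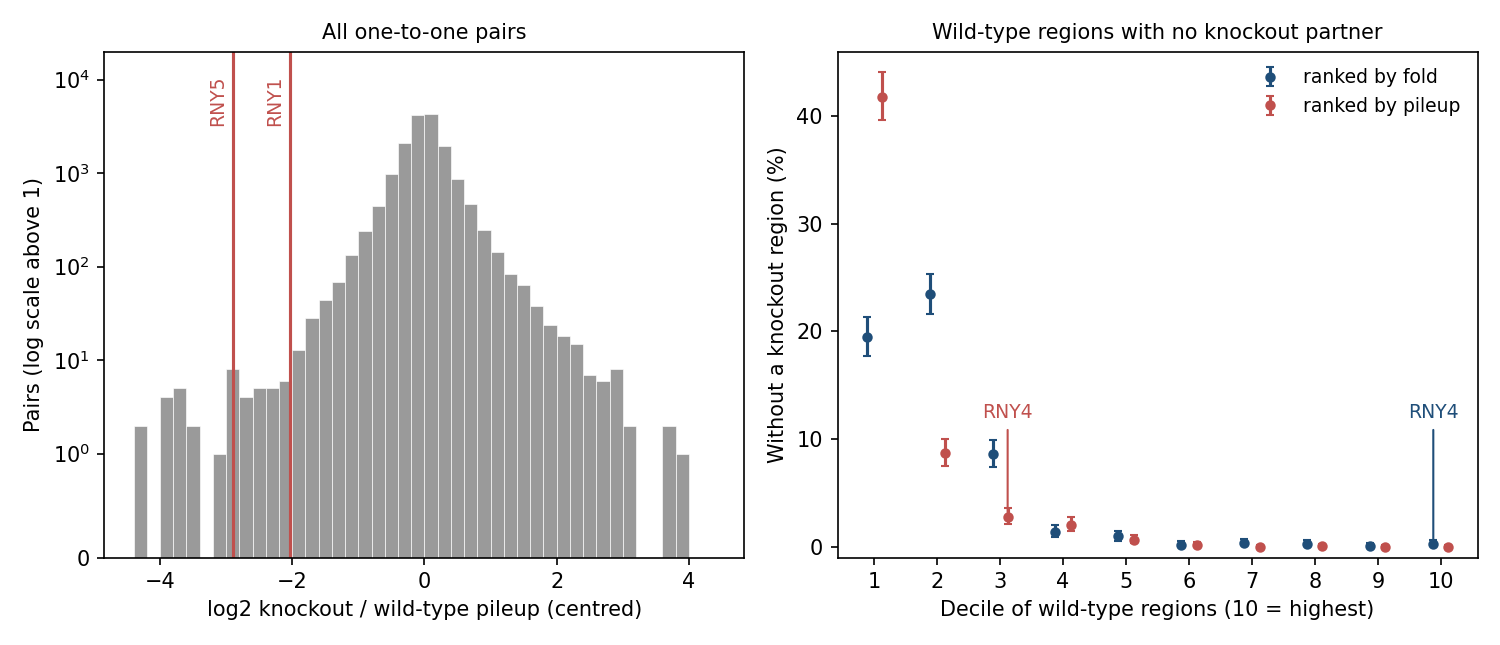
Left, the number of one-to-one pairs by centred log2 pileup ratio, knockout over wild-type, in bins of 0.2 (log count axis above 1), with red lines at RNY5 (−2.89) and RNY1 (−2.03), both in the sparse lower tail. Right, the percentage of wild-type regions without a knockout partner by decile of fold or of pileup, with 95% Clopper-Pearson bars; RNY4 is in the tenth decile by fold (0.253%) and in the third by pileup (2.81%).

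The wild-type regions most like RNY4, with no knockout region within 1 kb and the nearest values in the wild-type list, were taken from 910 such regions. By fold the 3 nearest lay on chromosome 17 from 7358861 to 7359584 and on chromosome 19 from 44488285 to 44488919 and from 44905204 to 44905783, with folds of 21.01, 22.9 and 18.1. By pileup they were the same chromosome 19 region at 44488285, with 79 fragments, another on chromosome 19 from 4304372 to 4304945, with 69, and 1 on chromosome X from 106045919 to 106046634, with 77. At 438 bp, the RNY4 region was narrower than each of these, which were 574 to 724 bp wide.

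The 4 wild-type regions of the window stood next to each other in the list, over 47572 bp, and each was either unshared or at least 2-fold lower in the knockout. Among all 19710 runs of 4 neighbouring wild-type regions, 7 (0.0355%) met this condition, in 5 separate stretches of the genome. This measure was chosen after the values were seen. The run length of 4 and the pileup cut of 74 used below were taken from this window. The run also includes the RNY4 region for which the locus was chosen. That the Y RNA run met the condition was therefore fixed by the selection, and the count is a description. In 2 of the 7 runs at least 3 of the regions had a pileup of 74 or more: the Y RNA run, with 3, and a run on chromosome 9 from 14314829 to 14348161, also with 3. The other runs held at most 2 regions of that pileup.

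The widths of the 2 shared regions differed in opposite directions between the lists. The RNY5 region was 1061 bp wide in wild-type cells but 584 bp in knockout cells, a ratio of 0.550, and 0.879% of all pairs had a ratio as low. Its lower edge lay 183 bp further in and its upper edge, on the side of the gene, 294 bp further in. The RNY1 region was 697 and 812 bp wide, a ratio of 1.16, against a median of 1.06 over all pairs. The summits stayed close, 32 bp apart in RNY5 and 40 bp apart in RNY1. In the whole window, the wild-type regions covered 2370 bp and the knockout regions 1396 bp.

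The local background rate was lower in the knockout at both genes. A control library is not given, so this rate may come from the same reads as the pileup. It is therefore not counted as a separate observation. At RNY5 its wild-type value was 10.8 and its knockout value 4.08 fragments per base, a ratio of 0.377, while the median ratio over all pairs was 2.04. At RNY1 the rates were 7.63 and 5.18, a ratio of 0.678. Since the fold divides the pileup by this rate, the centred log2 ratio by fold was −0.71 for RNY5 and −0.59 for RNY1, the same direction as by pileup but smaller, and 1.75% and 2.71% of all pairs had ratios by fold as low. By fold neither gene reached the 2-fold threshold.

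Ranks within each list need no scaling between libraries. By fold, RNY5 stood at the 97.5 percentile of the wild-type list and the 66.7 percentile of the knockout list, and RNY1 at the 94.6 and 65.5 percentiles. By pileup RNY5 went from the 61.0 to the 22.3 percentile and RNY1 from the 47.96 to the 24.3 percentile. By −log10 q the RNY5 percentiles were 76.1 and 28.5, and the RNY1 percentiles 58.0 and 30.3. Both genes thus ranked lower in the knockout list by each of these 3 measures. By width RNY5 ranked lower too, at 63.0 and 25.9, whereas RNY1 stood at 37.1 and 36.9. RNY4 stood at the 93.8 percentile of the wild-type list by fold, 39.9 by −log10 q, 29.8 by pileup and 22.4 by width: a narrow region of modest height over a low local rate of 2.61 fragments per base.

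**Figure D5:**
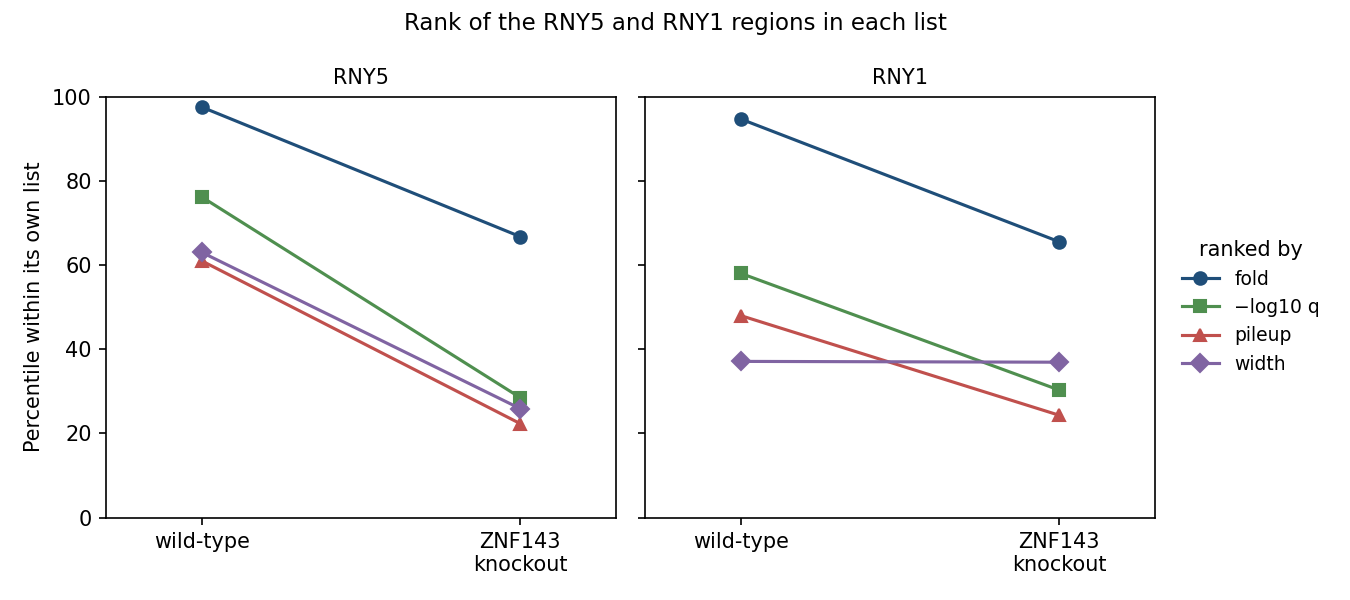
Percentile of the RNY5 and RNY1 regions within the wild-type and ZNF143 knockout lists, ranked by the authors' fold, −log10 q, recovered pileup and width. RNY5 was lower in the knockout list on all 4 measures (by fold 97.5 and 66.7), and RNY1 was lower by fold, −log10 q and pileup, with a width percentile of 37.1 and 36.9.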

How the data were processed

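Deposited peak lists in the 10-column narrowPeak layout were analysed, 1 per library. The submitters' processing notes name Bowtie2, MACS2, SAMtools 1.12, deepTools and the build hg19 (GRCh37); call settings and a control library are not given in the sources used here. The deposited fold column (a ratio over a local rate), the −log10 p and −log10 q columns and the score column (10 times −log10 q, not used further) are the authors' values.

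From the deposited columns, a whole-number pileup and a rate were solved for each region: the fold as pileup plus 1 over rate plus 1, and the p as the Poisson upper tail. The largest relative error was 2.67e-05, and in lists simulated from the wild-type and knockout values (20567 and 20509 regions) 100.0% of pileups were recovered. The simulated lists were built with these same formulas, so they check the solving step only and not whether the deposited values follow the formulas. Total reads were not used. The comparisons were limited to chromosomes 1 to 22, X and Y; an overlap of at least 1 bp made regions shared, and exactly 1 partner each way made a pair. The work was done with scipy 1.17.1, pandas 2.3.3, numpy 2.4.6 and matplotlib 3.10.9 in Python 3.11.15. Of the 4 genes, 4 matched in the RefSeq gene table and 0 in the RefSeq promoter table (GRCh38.p14), so no sequence is shown and motifs were not searched. Gene positions are those of the selection rule. The members, lists and settings were chosen with earlier results of these data known. Named items were the 4 genes, every region in the window, its nearest neighbours and the 3 regions most like RNY4 by fold and by pileup.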

Additional observations from a re-analysis of the deposited data

How the results depend on the processing

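No paired analysis was possible because only 1 library stood for each genotype, and no replicate could be left out. The counts of regions, genes and shared regions in the window stayed within 1.5 times their values under every alternative tried. At 5 kb the RNY1 region also lay within reach of RNY3. Counted for both genes, it gave 4 wild-type and 3 knockout genes with a region. Of 51 alternative values, 25 stayed within their limits and 26 moved. No centred log2 ratio changed sign. The other values are counts, percentiles and percentages, which cannot be negative. With the deposited fold in place of the pileup, the centred log2 ratio was −0.71 for RNY5 and −0.59 for RNY1; the local rate that the fold divides by was lower in the knockout at both. Centring on chromosome 7 or on pairs within 5 Mb gave −2.86 for RNY5 and −2.00 for RNY1 in each case. Percentiles by fold became, by pileup, −log10 q and width: for wild-type RNY5 61.0, 76.1 and 63.0; for wild-type RNY4 29.8, 39.9 and 22.4; for wild-type RNY1 47.96, 58.0 and 37.1; for knockout RNY5 22.3, 28.5 and 25.9; and for knockout RNY1 24.3, 30.3 and 36.9. The region with no gene was at 8.43 by fold, 3.93 by −log10 q and 1.90 by width. The share of wild-type regions with no knockout partner was 15.9% when 50% of both regions had to overlap, 4.60% when a knockout region within 1 kb sufficed and 4.63% at a −log10 q of at least 5. Pairs past 1.5-fold made up 6.45% lower and 7.11% higher, and pairs past 2-fold by the deposited fold 0.576% and 0.770%. The calling limit bears differently on the 2 unshared regions. At RNY4 a knockout pileup under 11 to 16 fragments would not have been called, depending on the rate assumed. The scaled wild-type pileup was 8.60 times the limit of 16 at RNY4, well above it. At the region with no gene it was only 1.63 times the limit.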
